A study of Homo sapiens with 6 samples.

Results

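The 4 teneurins (TENM1 to TENM4), the 3 latrophilins (ADGRL1 to ADGRL3) and the 3 FLRT genes (FLRT1 to FLRT3) were followed across 6 RNA-seq libraries of a prostate cancer cell line. These are 10 of the 60664 human Ensembl genes in the deposited table, matched by symbol, and all 10 were present. The families were chosen by a measured value, the RPKM ratio of TENM1, which is one of the largest between the 2 groups of the study. The values of TENM1 in this comparison are therefore a description and carry no test. The other 9 genes were taken for their family and not for their own values, and their p-values come from the same comparison.

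Teneurins are large single-pass membrane proteins whose extracellular part carries EGF-like repeats and a barrel of YD repeats. Latrophilins are adhesion G protein-coupled receptors that bind teneurins on the opposing cell, and through a neighbouring part of the receptor they bind FLRT proteins, which carry leucine-rich repeats. FLRT proteins also bind UNC5 netrin receptors. The 3 families are best known for synapse formation and axon guidance in the nervous system.

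The labels name the cells LNCaP, a line from a lymph node metastasis of prostate cancer, and the sample titles LNCaPE. The design text describes them as LNCaP-EnzaR, a derivative resistant to enzalutamide, a drug used against prostate cancer. The control group, shNC, and the PDGFC knockdown group, shPDGFC, made with a stably expressed short hairpin RNA, have 3 libraries each, and both were grown in DMEM with fetal bovine serum. PDGFC encodes a secreted platelet-derived growth factor. The sources used here do not give whether enzalutamide was in the medium, how many hairpins or clones were used, or whether the 3 libraries of a group are separate cultures, and the labels speak of pooled RNA. The spread behind each p-value is therefore that between libraries, and it may be technical.

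The libraries held 17360455 to 23930217 reads. PDGFC was at 8.19, 8.71 and 8.13 RPKM (reads scaled to gene length and library total) in shNC and at 3.0, 2.43 and 2.52 RPKM in shPDGFC, so every knockdown library lay below every control library. Of 13 prostate luminal markers 10 reached 1 RPKM in all 6 libraries, among them HOXB13 (8.71 and 8.62 RPKM in shNC and shPDGFC) and KRT8 (81.1 and 86.3 RPKM). KLK3 and KLK2, defining luminal genes that LNCaP cells are known to express, lay under 0.2 RPKM in every library, with 1 read each over all 6. On these genes the data go against the labelled cell line, whose identity is therefore in doubt. Of 12 neuronal or neuroendocrine markers 9 reached 1 RPKM in all libraries, led by the neurofilament genes NEFM (53.0 and 52.6 RPKM) and NEFL (45.1 and 40.9 RPKM). Their summed level was 158 to 160 RPKM in shNC and 148 to 154 RPKM in shPDGFC, against 176 to 178 and 190 to 204 RPKM for the luminal list and 18.6 to 18.9 and 14.9 to 15.4 RPKM for 7 fibroblast markers. Of the fibroblast list COL1A2 and THY1 lay under 0.2 RPKM, THY1 with 0 reads, which allows up to 0.173 CPM (reads scaled to the library total alone) in the shallowest library. All 4 endothelial markers and 3 of 4 leukocyte markers were under 0.2 RPKM. The summed luminal, neuronal and fibroblast levels did not overlap between the groups, and their part in the results below was not tested. In bulk RNA, fewer cells of a type and less RNA per cell cannot be told apart.

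The starts of the 3 members whose RPKM was higher in all shPDGFC libraries, TENM1, TENM3 and ADGRL2, are shown here. Those of TENM4 and FLRT1, whose RPKM was lower in all shPDGFC libraries, are not shown. Each sequence is the RefSeq window of 300 bases that reaches from upstream to just past an annotated start, on GRCh38.p14. The RefSeq table used gives 23 such windows for 9 of the 10 genes, with none for ADGRL1, and TENM1 has 2 of them. For TENM3 and ADGRL2 the window nearest the GENCODE gene start is shown, of 2 and 8 windows. Capitals mark matches, on either strand, to the ETS core GGAAGT. The windows were also searched for the AP-1 site TGANTCA, the TEAD site GGAATG and the CArG box of serum response factor, none of which overlaps the capitals.
TENM1, start nearest the GENCODE one, chrX:124963768-124964067, minus strand: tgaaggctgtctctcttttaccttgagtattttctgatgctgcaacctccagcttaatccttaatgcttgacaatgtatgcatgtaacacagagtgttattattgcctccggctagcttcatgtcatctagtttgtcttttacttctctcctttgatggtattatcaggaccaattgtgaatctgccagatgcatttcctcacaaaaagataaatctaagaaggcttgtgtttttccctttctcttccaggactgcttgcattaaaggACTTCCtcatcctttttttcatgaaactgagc
TENM1, upstream start, chrX:125204263-125204562, minus strand: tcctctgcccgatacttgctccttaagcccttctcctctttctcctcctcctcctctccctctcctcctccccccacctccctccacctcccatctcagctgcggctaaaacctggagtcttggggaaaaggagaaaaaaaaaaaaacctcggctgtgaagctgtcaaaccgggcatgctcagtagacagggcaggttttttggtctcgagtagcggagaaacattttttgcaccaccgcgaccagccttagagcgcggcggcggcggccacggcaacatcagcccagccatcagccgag
TENM3, chr4:182143713-182144012, plus strand: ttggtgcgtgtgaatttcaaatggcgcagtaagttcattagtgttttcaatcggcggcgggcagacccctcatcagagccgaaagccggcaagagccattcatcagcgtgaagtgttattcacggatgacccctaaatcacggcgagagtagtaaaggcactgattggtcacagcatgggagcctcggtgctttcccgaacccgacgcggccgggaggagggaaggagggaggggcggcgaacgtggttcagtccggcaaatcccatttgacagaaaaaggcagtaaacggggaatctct
ADGRL2, chr1:81305882-81306181, plus strand: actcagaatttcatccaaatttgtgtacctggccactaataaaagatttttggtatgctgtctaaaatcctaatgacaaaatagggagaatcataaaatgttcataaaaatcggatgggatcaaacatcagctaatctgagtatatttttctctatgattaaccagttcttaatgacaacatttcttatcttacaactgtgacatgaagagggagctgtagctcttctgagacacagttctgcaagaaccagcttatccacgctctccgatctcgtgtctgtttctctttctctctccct

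The 2 TENM1 windows are unlike in composition, with 39.3% G and C in the one and 57.3% in the upstream one, against a median of 58.7% over all 35116 windows of that length. The first holds 1 ETS core and the upstream window none. Over the 23 windows of the 9 genes, 2 held the ETS core (1 of TENM1 and 1 of FLRT1), where 22.8% of all windows do. The AP-1 site was in 1 window, of FLRT1 (7.71% of all windows), and the TEAD site in 4 windows, 1 each of TENM2, ADGRL2, FLRT2 and FLRT3 (14.0% of all windows). The CArG box was in 0 of the 23 windows, where 1.29% of all windows hold it. Reads were counted per gene, so the files do not say which start was used.

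The members differed over a wide range of level per length. In shNC the order was ADGRL2 (16.4 ± 0.59 RPKM, SD, n = 3), ADGRL1 (15 ± 0.52 RPKM), TENM3 (11.2 ± 0.22 RPKM), FLRT3 (3.29 ± 0.23 RPKM) and ADGRL3 (2.79 ± 0.16 RPKM). Below 1 RPKM followed FLRT1 (0.830 ± 0.078), TENM4 (0.617 ± 0.040), TENM1 (0.349 ± 0.051), FLRT2 (0.0277 ± 0.0057) and TENM2 (0.0213 ± 0.0027 RPKM, SD, n = 3). Among neighbours in this order the libraries of FLRT2 and TENM2 overlapped, and those of no other pair did. The same 3 genes led in shPDGFC, in the same order, but TENM1 stood in the sixth place there, above FLRT1 and TENM4. In shPDGFC the libraries of FLRT3 and ADGRL3, of FLRT1 and TENM4 and of FLRT2 and TENM2 overlapped. The place of FLRT2 depends on its length. The deposited values imply 33681 bases for it, against 4170 for FLRT1, 4977 for FLRT3 and 8550 for TENM2. In shNC, FLRT2 had 60 reads and TENM2 had 12.

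**Figure D1:**
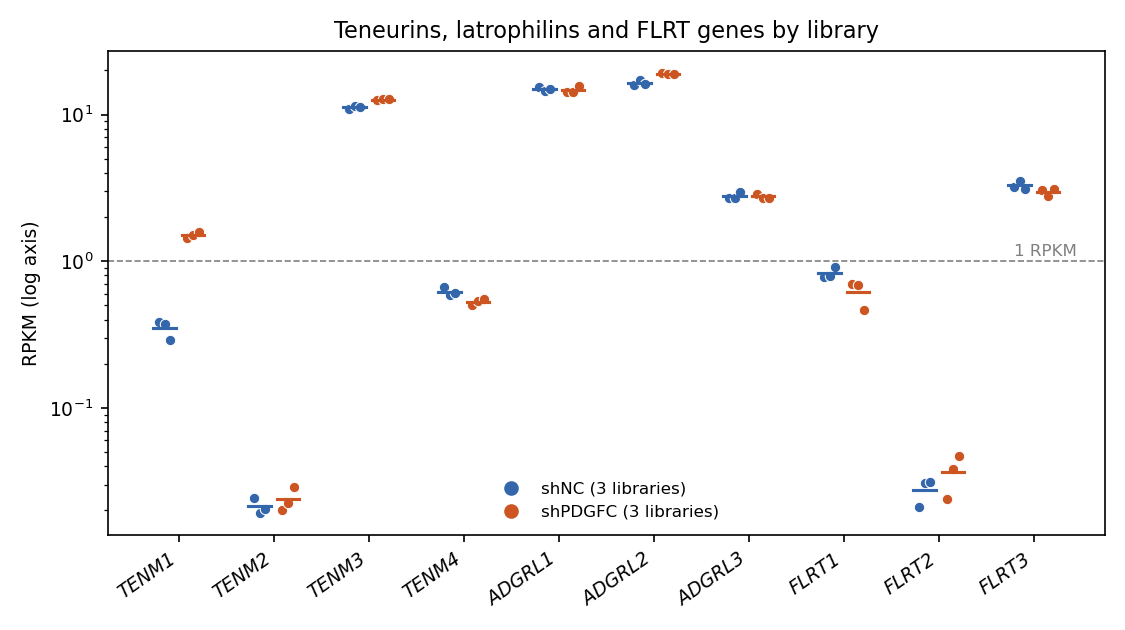
RPKM of each family member (log axis) in the 3 shNC and 3 shPDGFC libraries, with a bar at each group mean and a dashed line at 1 RPKM. TENM1 goes from below the line in shNC (0.291 to 0.383 RPKM) to above it in shPDGFC (1.43 to 1.58 RPKM), while ADGRL1, ADGRL2 and TENM3 stay between 11.0 and 19.3 RPKM.

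TENM1 encodes teneurin-1 (ENSG00000009694, GENCODE version 29 on GRCh38, chromosome X, 124375903 to 124963817, minus strand). It was at 0.383, 0.374 and 0.291 RPKM in shNC and at 1.43, 1.5 and 1.58 RPKM in shPDGFC. All shPDGFC libraries were above all shNC libraries. The deposited values correspond to 118, 88 and 86 reads in shNC and to 319, 405 and 410 reads in shPDGFC. The mean was 4.31 times as high in shPDGFC, the rank 4 among the ratios of 15337 tested genes. This value led to the choice of the gene, and no test is attached to it. On the log2(RPKM + 1) scale, which understates changes of low genes, the difference was 0.89 ± 0.087 (SE), and with limma-voom on the recovered reads it was 2.13 ± 0.10 (SE). TENM1 reached the minimum for testing, 1 RPKM in at least 3 libraries, through the shPDGFC libraries alone.

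Part of an exon is shared with another gene. Of the annotated exon bases of TENM1, 241 (1.87%, all of them coding, 124422398 to 124422638) are also exon of STAG2, a cohesin subunit gene on the opposite strand, in 1 of its 18 transcripts. STAG2 was far more abundant, at 71.0, 71.0 and 71.7 RPKM in shNC and at 67.8, 65.3 and 67.4 RPKM in shPDGFC. It was lower in every shPDGFC library, the opposite of TENM1 (log2 change -0.09 ± 0.023 SE, limma, adjusted p = 0.024). That call was lost without any shNC library (adjusted p = 0.064, 0.057 and 0.080), without shPDGFC replicate 2 (0.056) or replicate 3 (0.054). It was also lost with TMM scaling (0.055) and with the replicate number as a block (0.061). The sources used here give no strand setting for the counting, and how many reads in TENM1 stem from STAG2 was not tested.

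In the other teneurins the differences were smaller or rested on few reads. TENM3, encoding teneurin-3 (ENSG00000218336, chromosome 4, 182143987 to 182803024), was at 11.0, 11.4 and 11.3 RPKM in shNC and at 12.5, 12.7 and 12.8 RPKM in shPDGFC, without overlap. It rose by 12.6% (log2 change 0.16 ± 0.029 SE, limma, adjusted p = 0.0069). TENM4, encoding teneurin-4 (ENSG00000149256, chromosome 11, 78652831 to 79440948), was at 0.663, 0.586 and 0.603 RPKM in shNC and at 0.505, 0.539 and 0.550 RPKM in shPDGFC. Its shPDGFC libraries all lay below its shNC libraries, but it did not pass when genes with a mean of at least 0.1 RPKM were tested (log2 change -0.08 ± 0.063 SE, limma, adjusted p = 0.46; 16.8% of such genes passed, 7.86% higher and 8.99% lower) or with limma-voom (-0.21, adjusted p = 0.089), with which 33.6% of genes passed, 16.7% higher and 16.9% lower. TENM2, encoding teneurin-2 (ENSG00000145934, chromosome 5, 167284799 to 168264157), had 3 to 5 reads in each of the 6 libraries. These counts lie at or near the floor of 3 reads per library, and no fold is given.

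TENM3 shares exon bases with 2 antisense genes. TENM3-AS1 shares 115 bases, none of them coding in TENM3, and was at 28.7, 31.7 and 32.4 RPKM in shNC and 25.9, 27.2 and 28.1 RPKM in shPDGFC. It fell while TENM3 rose (log2 change -0.18 ± 0.050 SE, limma, adjusted p = 0.031). This call was lost without shNC replicate 2 (adjusted p = 0.088) or 3 (0.094), without shPDGFC replicate 1 (0.088) or 2 (0.067), with limma-voom (0.060), with no filter (0.093) and among genes with a mean of at least 0.1 RPKM (0.053). The other gene, ENSG00000248694, had 1 read in each group.

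Summed over the 4 genes, teneurin levels were 12.1, 12.4 and 12.2 RPKM in shNC and 14.5, 14.8 and 14.9 RPKM in shPDGFC. TENM3 made up 91.9% ± 0.72 of this sum in shNC and 86.0% ± 0.50 in shPDGFC (SD, n = 3). The share of TENM1 was 2.85% ± 0.42 and 10.2% ± 0.37 (SD, n = 3), and that of TENM4 5.05% ± 0.39 and 3.61% ± 0.10 (SD, n = 3). TENM3 thus supplied most teneurin mRNA per length in all 6 libraries, and the next member was TENM4 in shNC and TENM1 in shPDGFC. Both the sum and the shares include TENM1, which was chosen for its ratio, so their group differences are a description and carry no test. The share of TENM3 was lower in shPDGFC although its own level rose.

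**Figure D2:**
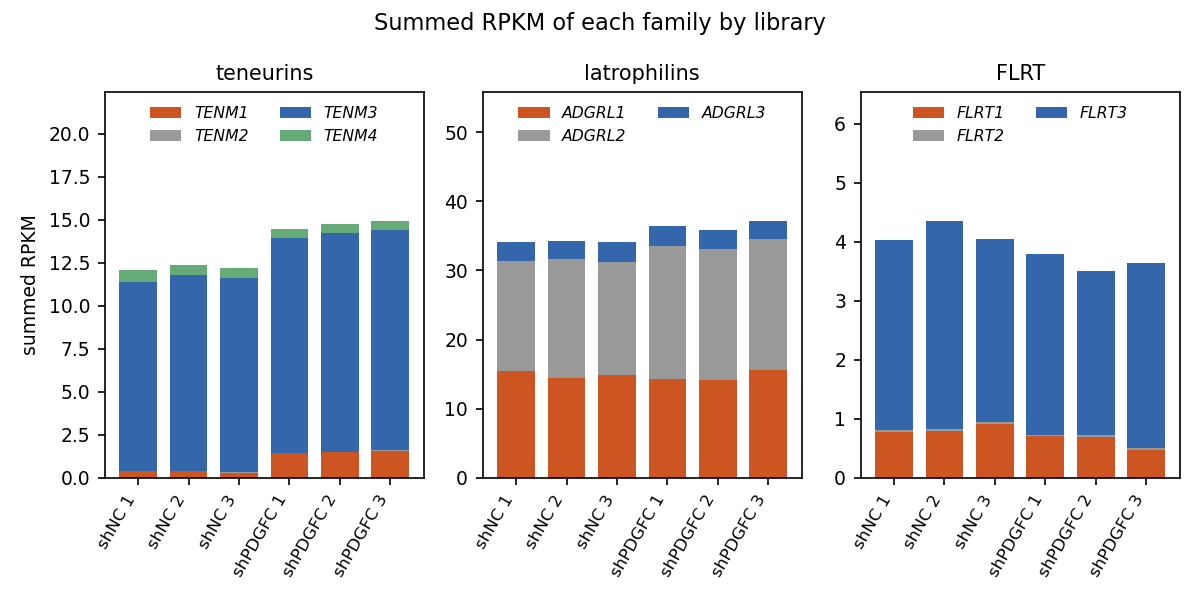
Summed RPKM of the teneurins, the latrophilins and the FLRT genes in each library, with each gene as a segment of the bar. The teneurin bars are 12.1 to 12.4 RPKM in shNC and 14.5 to 14.9 RPKM in shPDGFC, and the TENM1 segment grows from at most 3.17% to at least 9.85% of the bar. TENM1 was chosen for its ratio, so these teneurin differences are a description.

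Of the latrophilins, which are the receptors for both other families, ADGRL2 rose. ADGRL2 (latrophilin 2, ENSG00000117114, chromosome 1, 81306160 to 81992436) was at 15.9, 17.1 and 16.3 RPKM in shNC and at 19.3, 18.9 and 18.9 RPKM in shPDGFC. The groups did not overlap, and the mean was 16.0% higher (log2 change 0.20 ± 0.032 SE, limma, adjusted p = 0.0041). ADGRL1 (latrophilin 1, ENSG00000072071, chromosome 19, 14147743 to 14206187) was at 15.5, 14.5 and 14.9 RPKM in shNC and at 14.3, 14.2 and 15.6 RPKM in shPDGFC. Its groups overlapped, and the 95% interval of the log2 change was -0.13 to 0.07 (limma, adjusted p = 0.68). ADGRL3 (latrophilin 3, ENSG00000150471, chromosome 4, 61201258 to 62078335) was at 2.69, 2.70 and 2.97 RPKM in shNC and at 2.89, 2.71 and 2.72 RPKM in shPDGFC. It too overlapped, with a 95% interval of -0.14 to 0.13 (limma, adjusted p = 0.96).

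The summed latrophilin level was 34.2 ± 0.065 RPKM in shNC and 36.5 ± 0.69 RPKM in shPDGFC (SD, n = 3). ADGRL2 gave 48.0% ± 1.6 of it in shNC and 52.2% ± 1.2 in shPDGFC, ADGRL1 43.8% ± 1.6 and 40.2% ± 1.4 (SD, n = 3). Of the exon bases of ADGRL1, 473 are shared with the antisense gene ADGRL1-AS1, which was far less abundant, at 0.246 to 0.406 RPKM in shNC and 0.458 to 0.636 RPKM in shPDGFC. ADGRL1-AS1 did not pass among genes with a mean of at least 0.1 RPKM (limma, adjusted p = 0.15) but did with limma-voom (adjusted p = 0.033). ADGRL3-AS1 shares 153 bases with ADGRL3 and is listed at 0 in all 6 libraries. No annotated gene shares exon bases with ADGRL2.

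The FLRT genes encode the leucine-rich repeat ligands of latrophilins. FLRT3 (ENSG00000125848, chromosome 20, 14322988 to 14337616) was the main one, at 3.22, 3.54 and 3.10 RPKM in shNC and at 3.06, 2.78 and 3.12 RPKM in shPDGFC. The groups overlapped by 1 library, and the 95% interval of the log2 change was -0.25 to 0.04 (limma, adjusted p = 0.25). FLRT1 (ENSG00000126500, chromosome 11, 64103188 to 64119173) was at 0.782, 0.788 and 0.919 RPKM in shNC and at 0.704, 0.688 and 0.465 RPKM in shPDGFC, on 226 and 150 reads. All shPDGFC libraries lay below all shNC libraries, with shPDGFC replicate 3 the lowest. It did not pass among genes with a mean of at least 0.1 RPKM (log2 change -0.18 ± 0.085 SE, limma, adjusted p = 0.21), but did with limma-voom (-0.44 ± 0.17 SE, adjusted p = 0.041). FLRT2 (ENSG00000185070, chromosome 14, 85530144 to 85654426) had 14 to 32 reads per library, and its groups overlapped (0.0211 to 0.0310 RPKM in shNC, 0.0239 to 0.0472 RPKM in shPDGFC). It did not pass with limma-voom (log2 change 0.42 ± 0.27 SE, adjusted p = 0.25). Summed, the FLRT genes were at 4.14 ± 0.19 RPKM in shNC and 3.64 ± 0.14 RPKM in shPDGFC (SD, n = 3).

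Both FLRT1 and FLRT3 lie inside another gene on the opposite strand, without shared exons. These hosts were looked up after the values were seen. MACROD1, around FLRT1, was at 6.82, 6.80 and 6.62 RPKM in shNC and at 5.45, 5.52 and 6.33 RPKM in shPDGFC. It fell (log2 change -0.20 ± 0.055 SE, limma, adjusted p = 0.033), but the call was lost without any 1 of the 3 shNC libraries or without shPDGFC replicate 1 or 2 (adjusted p = 0.072 to 0.092). It was also lost with limma-voom (0.087), no filter (0.091), the filter on a mean of 0.1 RPKM (0.057) and the replicate block (0.070). MACROD2, around FLRT3, was at 0.944 to 0.992 RPKM in shNC and 0.789 to 0.856 RPKM in shPDGFC and did not pass among genes with a mean of at least 0.1 RPKM (limma, adjusted p = 0.23). FLRT1 also shares 538 exon bases, 13.6% of its own, with ENSG00000256341 on the opposite strand, which had 24 reads in shNC and 10 in shPDGFC, and 460 bases with ENSG00000256824 on the same strand, which had 1 read over all libraries. The part of host or antisense reads in the FLRT1 and FLRT3 levels was not tested.

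In all, 6 of the 10 members reached the minimum for testing, and TENM1 is one of them only through shPDGFC. Of the 5 others, TENM3 and ADGRL2 passed, both higher, and ADGRL1, ADGRL3 and FLRT3 did not. Among all 15337 tested genes 29.8% passed, 14.2% higher and 15.6% lower, and the groups did not overlap in 46.8%. With 5 genes no reading of this count against that background is made. TENM4 and FLRT1 entered only the wider tests given beside their values. TENM2 and FLRT2 were below both the minimum and a mean of 0.1 RPKM.

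**Figure D3:**
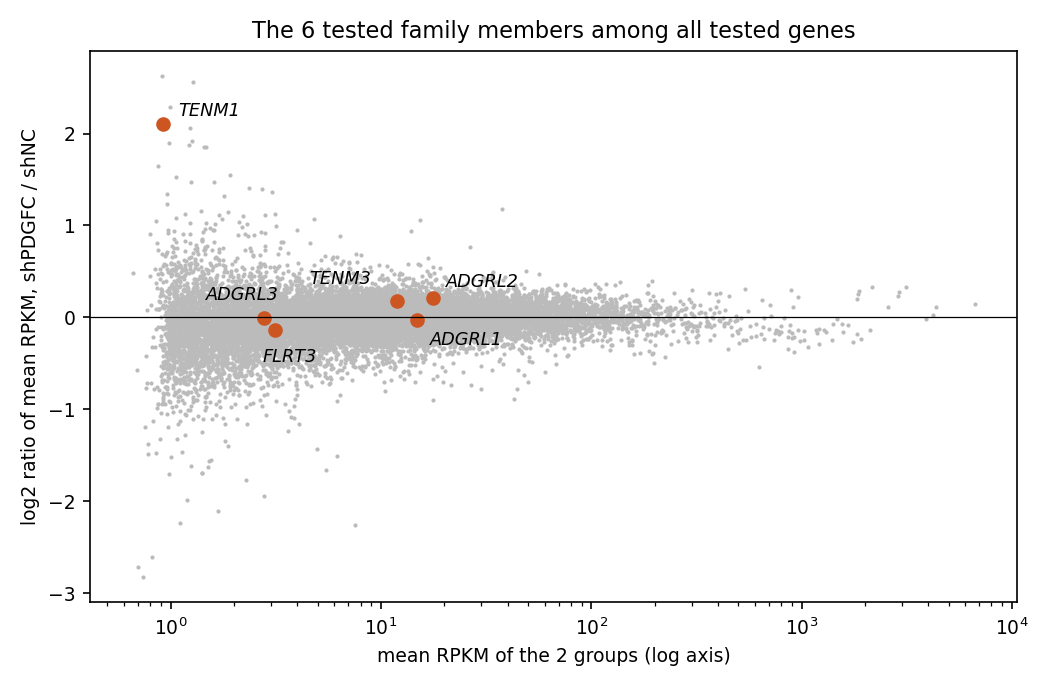
Log2 ratio of the mean RPKM (shPDGFC over shNC) against the mean RPKM of the groups (log axis) for all tested genes in grey and the 6 tested family members in orange. TENM1 lies near the upper edge at a low level (ratio 4.31), and the 5 others lie close to 0, with ratios from 0.908 (FLRT3) to 1.16 (ADGRL2).

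The 5 nearest tested genes on either side of TENM1 on chromosome X went in both directions. On the side towards lower coordinates, GLUD2 (1.77 and 1.44 RPKM in shNC and shPDGFC), THOC2 (45.0 and 46.3 RPKM), XIAP (11.7 and 11.9 RPKM) and STAG2-AS1 (2.93 and 2.84 RPKM) did not pass (limma, adjusted p = 0.11, 0.20, 0.54 and 0.95), and STAG2, given above, fell. On the other side the nearest tested gene, SMARCA1, a chromatin remodeller 4483 kb away, stood at 40.4 ± 0.58 RPKM in shNC and rose to 44.5 ± 2.0 RPKM (limma, adjusted p = 0.025; SD, n = 3). OCRL, a phosphoinositide phosphatase, was at 22.3 ± 0.22 RPKM and rose to 29 ± 0.12 RPKM (limma, adjusted p = 0.00024; SD, n = 3). APLN, the gene of the peptide apelin, was at 1.43 ± 0.14 RPKM in shNC and 0.789 ± 0.095 RPKM in shPDGFC (SD, n = 3). It reached the minimum for testing through the shNC libraries alone, so no test is attached. ZDHHC9 (13.4 and 14.1 RPKM) and UTP14A (28.1 and 27.4 RPKM) did not pass (limma, adjusted p = 0.080 and 0.59). The call for SMARCA1 was lost without shNC replicate 1, 2 or 3 (adjusted p = 0.064, 0.071 and 0.055) and with no filter (0.067), and UTP14A passed, as lower, without shPDGFC replicate 1 (0.046). The median log2 change was -0.03 over the 531 tested genes of chromosome X and -0.01 over all tested genes.

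**Figure D4:**
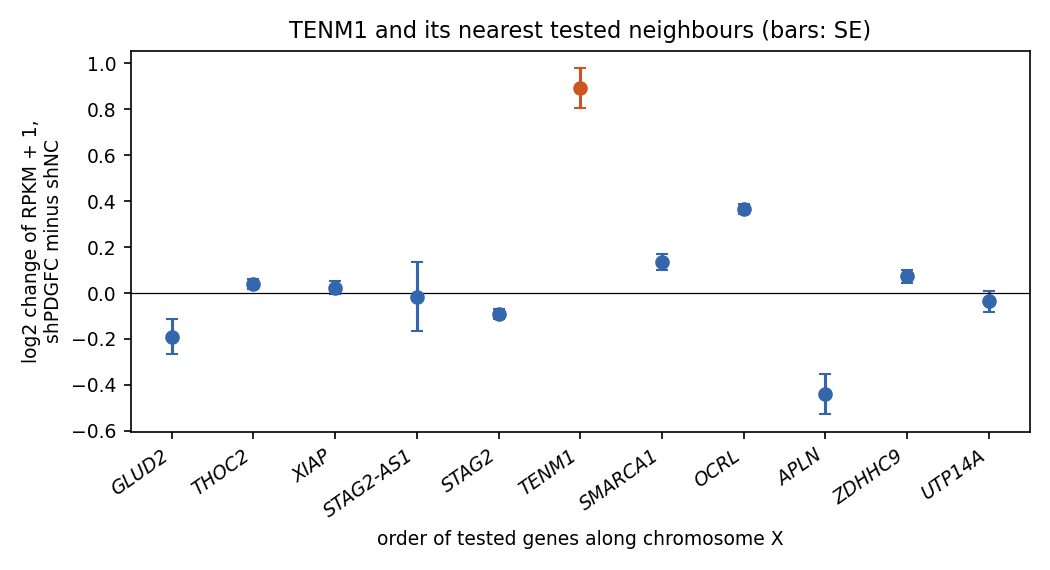
Log2 change of RPKM + 1 (shPDGFC minus shNC) with its SE for TENM1 and the 5 nearest tested genes on each side, in their order along chromosome X. TENM1 stands at 0.89, OCRL at 0.37 and APLN at -0.44, and the others lie between -0.19 and 0.14.

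By profile, the tested genes most like TENM1 were found by dividing the 6 RPKM values of each gene by their mean and taking the root mean square distance over the 6 libraries. The nearest were SPRY4 (distance 0.117), the gene ENSG00000228160, which has no symbol (0.149), ACTBL2 (0.158), ZNF676 (0.170) and ETV5 (0.178). SPRY4, a restrainer of receptor tyrosine kinase signalling, was at 0.622, 0.369 and 0.586 RPKM in shNC and at 1.68, 1.93 and 2.18 RPKM in shPDGFC. ZNF676, a zinc finger gene, was at 0.355, 0.297 and 0.355 RPKM in shNC and at 1.45, 1.95 and 1.52 RPKM in shPDGFC. ETV5, an ETS transcription factor, was at 1.47, 1.36 and 1.05 RPKM in shNC and at 3.22, 3.63 and 3.45 RPKM in shPDGFC. All 5 were, like TENM1, separated between the groups, which the measure favours, so no test is attached. ACTBL2 has close actin paralogs and ZNF676 close zinc finger paralogs, and their levels are uncertain. ENSG00000228160 rests on 10 reads in shNC and 56 in shPDGFC.

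Known binding partners of the 3 families, their receptor relatives and other synaptic adhesion genes formed 5 lists, of which 41 genes were tested. Of these 6 rose and 4 fell (24.4%, where 29.8% of all tested genes passed), with a median log2 change of 0.02. Among the 6 tested receptors and partners of FLRT proteins, ROBO1, an axon guidance receptor, rose from 23.3 to 27.0 RPKM, with 22.8, 24.0 and 23.2 RPKM in shNC and 26.5, 27.0 and 27.4 RPKM in shPDGFC (limma, adjusted p = 0.0028). The receptor tyrosine kinase gene FGFR1 (8.30 and 9.13 RPKM) and the netrin receptor gene UNC5A (1.17 and 1.06 RPKM) did not pass (limma, adjusted p = 0.070 and 0.54), though FGFR1 did with limma-voom (0.0086), with TMM scaling (0.047) and without shNC replicate 1 (0.040). The median log2 change of this list was 0.12, and UNC5D, with under 0.1 RPKM in every library and named for that, was not tested. The other UNC5 genes, UNC5B (8.62 and 8.75 RPKM) and UNC5C (2.19 and 2.52 RPKM), are named after their values were seen. Neither passed (limma, adjusted p = 0.70 and 0.092), though UNC5C did as higher with limma-voom (0.0047).

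Of the 7 latrophilin partners only NRXN3 and SHANK3 were abundant enough to test. NRXN3, which encodes the presynaptic receptor neurexin 3, was at 1.82 and 2.14 RPKM in shNC and shPDGFC, and SHANK3, which encodes a postsynaptic scaffold, at 4.77 and 4.19 RPKM. Neither passed (limma, adjusted p = 0.10 and 0.077), while with limma-voom both did, NRXN3 as higher (0.0013) and SHANK3 as lower (0.029). NRXN2 (0.569 and 0.526 RPKM), SHANK1 (0.662 and 0.563 RPKM) and SHANK2 (0.970 and 0.939 RPKM), named after their values were seen, lay below the minimum.

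Of the 5 teneurin partners 2 rose and 0 fell, with a median log2 change of 0.05. Of all tested genes 14.2% rose and 15.6% fell, and with 5 genes no reading of this count is made. MBD1, a methyl-CpG binding protein reported to bind the teneurin-1 intracellular domain, was at 24.5, 24.0 and 24.0 RPKM in shNC and at 26.6, 26.6 and 28.0 RPKM in shPDGFC (limma, adjusted p = 0.0063). DAG1, which encodes dystroglycan, was at 20.7, 22.2 and 22.4 RPKM in shNC and at 23.9, 24.5 and 23.7 RPKM in shPDGFC (limma, adjusted p = 0.025). The call for DAG1 was lost without shNC replicate 1 (adjusted p = 0.055) or without shPDGFC replicate 1, 2 or 3 (0.054, 0.070 and 0.053), and with no filter on low genes (0.065). MITF, a transcription factor gene (8.02 and 7.11 RPKM), did not pass (limma, adjusted p = 0.053), but did as lower with limma-voom (0.012), upper-quartile scaling (0.046), at least 1 RPKM in all 6 libraries (0.050) and the replicate block (0.040).

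The other adhesion G protein-coupled receptors, relatives of the latrophilins, included calls in either direction. There were 2 higher and 3 lower among 13 tested (38.5%, where 29.8% of all tested genes passed), with a median log2 change of -0.08. ADGRE5, which encodes CD97, was at 12, 12.3 and 11.6 RPKM in shNC and at 13.9, 14.3 and 14.6 RPKM in shPDGFC (limma, adjusted p = 0.0030). ADGRG6 rose from 7.61 to 8.90 RPKM (limma, adjusted p = 0.0080). The planar cell polarity genes CELSR2 (4.74 to 3.85 RPKM) and CELSR3 (3.89 to 3.05 RPKM) fell (limma, adjusted p = 0.023 and 0.026), as did ADGRB2 (4.12 to 3.59 RPKM, adjusted p = 0.037), which is named after its value was seen. ADGRB2 did not pass among genes with a mean of at least 0.1 RPKM (limma, adjusted p = 0.062). CELSR2 no longer passed when shNC replicate 1, shNC replicate 2, shPDGFC replicate 1 or shPDGFC replicate 3 was left out (adjusted p = 0.059 to 0.076) or with no filter (0.068). CELSR3 no longer passed when replicate 1 or replicate 3 of either group was left out (adjusted p = 0.054 to 0.084), with no filter (0.077) or with the replicate block (0.070).

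Of 15 tested synaptic adhesion genes outside these families 1 rose and 1 fell (13.3%, where 29.8% of all tested genes passed). Their median log2 change was 0.03. CADM1, an immunoglobulin-type cell adhesion gene, was at 15.8, 16.3 and 16.8 RPKM in shNC and at 20.2, 20 and 20.1 RPKM in shPDGFC (limma, adjusted p = 0.0010). SLITRK5, a leucine-rich repeat gene, fell from 25.0 to 21.6 RPKM (limma, adjusted p = 0.0090). PTPRS (9.60 and 10.7 RPKM) and LINGO1 (4.19 and 3.57 RPKM) did not pass (limma, adjusted p = 0.056 and 0.052). With limma-voom both did, PTPRS as higher (0.0018) and LINGO1 as lower (0.029). PTPRS also passed with TMM scaling (0.041), and LINGO1 with upper-quartile scaling (0.042), with at least 1 RPKM in all 6 libraries (0.047) and without shPDGFC replicate 3 (0.048).

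**Figure D5:**
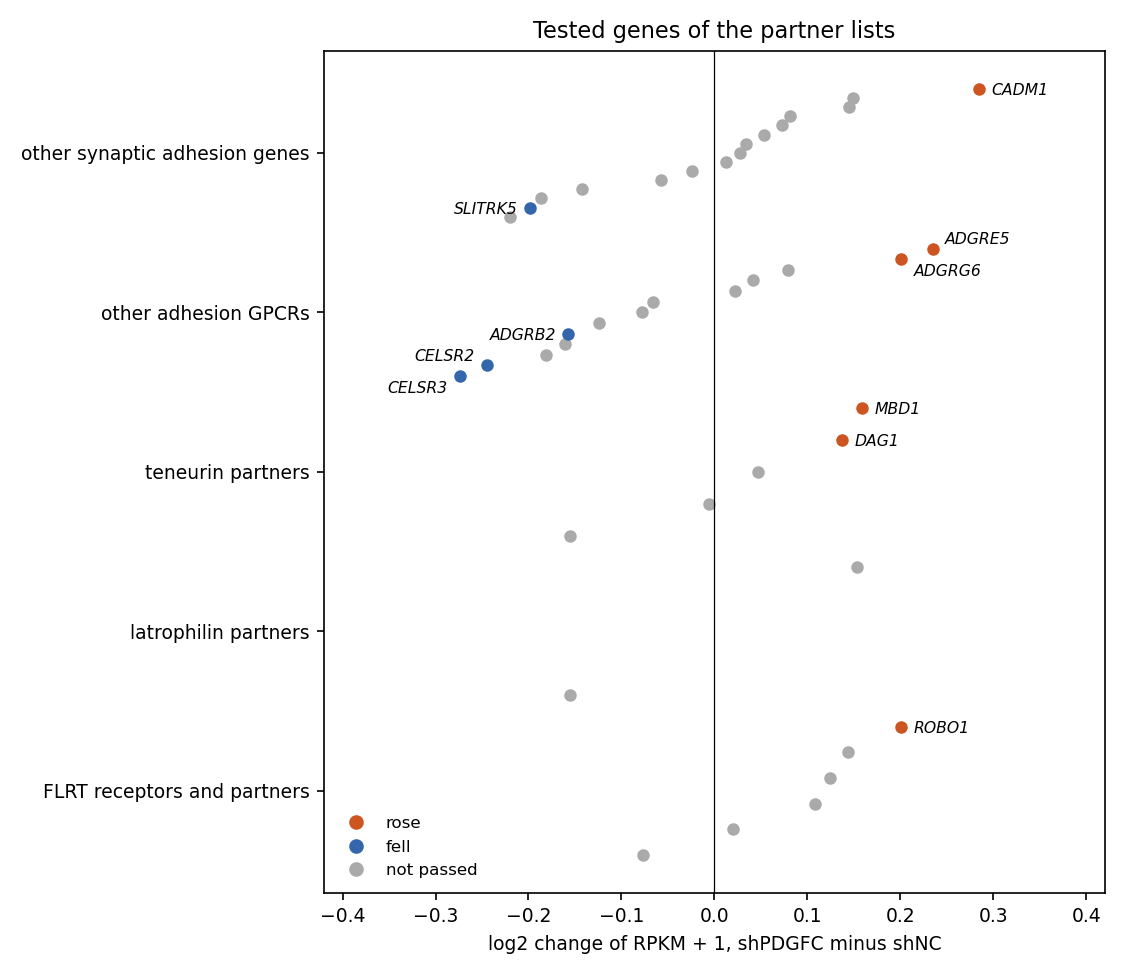
Log2 change of RPKM + 1 (shPDGFC minus shNC) of each tested gene of the 5 partner lists, in orange where it rose, in blue where it fell and in grey where it did not pass. All 41 points lie between -0.27 and 0.29, and 31 of them are grey.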

How the data were processed

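The authors deposited 1 value per gene and library, read here as RPKM from its structure, since the header names no unit. Within each gene the 6 values stood in whole-number ratios after 1 factor per library (tolerance 1e-12) for all 37040 genes with a value, which gave back whole reads and library totals. Between 99.45% and 99.46% of each total was recovered. The sources used here give no aligner, counter, annotation or strand setting. Mouse genome builds are named in the submitters' processing notes, although the identifiers are human. Symbols were matched by Ensembl identifier and coordinates taken from GENCODE version 29 on GRCh38.

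Genes with at least 1 RPKM in at least 3 libraries (15337) entered a limma fit (version 3.58.1, R 4.3.3) of log2(RPKM + 1), with the variance trended on the mean, Benjamini-Hochberg adjustment over all of them and a threshold of 0.05. A gene rose or fell only if it passed. Lower members were tested among genes with a mean of at least 0.1 RPKM, and with limma-voom on the recovered reads. The fit planned for the case of whole counts did not apply. The procedure was also run on simulated reads, with the same dispersion for every gene and only for genes at a mean of at least 1 RPKM. That run does not cover lower genes such as TENM4, FLRT1 and FLRT2, and its outcome is not given here.

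The members, gene lists and tests were chosen with earlier results of these data known. Named genes are the members, PDGFC, genes sharing their exons, the 5 tested genes on either side of TENM1, the 5 nearest profiles, and the 2 higher and 2 lower genes with the smallest p of each partner list. Same-group libraries differed by more than sampling noise (chi-square per degree of freedom 1.462 to 2.566), and none was left out. Some genes of the lists are not reported here by name.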

Additional observations from a re-analysis of the deposited data

How the results depend on the processing

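TENM3 (log2 change 0.14 to 0.18), ADGRL2 (0.18 to 0.23), ROBO1, MBD1, ADGRE5, ADGRG6, CADM1, SLITRK5 and OCRL kept direction and call in every alternative that tested them. No called gene reversed. Of the genes without a call, ADGRL3 (-0.03 to 0.03) and STAG2-AS1 (-0.19 to 0.10) changed sign between alternatives. The TENM1 difference grew with a smaller pseudocount, to 1.24 with 0.5 and 1.84 with 0.1, and was 0.86 to 0.92 with 1 library left out. TENM1 was chosen for this difference, so these values are a description and lend it no support. TENM1 was not tested with at least 1 RPKM required in all 6 libraries.

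The partner lists depended more on the processing. With limma-voom 12 partners were higher and 12 lower, where the main test gave 6 and 4. Over all genes 33.6% of 18191 passed with limma-voom and 29.8% of 15337 in the main test. Limma-voom also tested partners below the main minimum, so the counts do not cover the same genes. The lower partners numbered 1 with no filter, 7 with at least 0.5 RPKM in 3 libraries, 8 with at least 1 RPKM in all 6, and 7 with upper-quartile scaling. Over the whole table the lower genes numbered 1676, 2412, 2447 and 2695 in these settings. Leaving out 1 library gave 5 to 6 higher and 1 to 3 lower partners, and 1516 to 1852 higher and 1649 to 2016 lower genes over the whole table (2173 and 2398 in the main test). The counts over all genes stayed within 1.5 times under every alternative run. The cause was not tested.

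The replicate numbers of the titles did not pair the libraries. Same-numbered libraries had correlations of -0.101, -0.111 and -0.018 between their deviations from the group means. With the replicate block 1628 genes were higher and 1841 lower, with 6 and 3 partners. An edgeR fit was planned only for the case of whole counts, and neither it nor a DESeq2 fit was run. The deposited values were read as RPKM, though whole reads were recovered from them. On the recovered reads limma-voom was the only fit made. Depth limits TENM2 (12 reads per group) and FLRT2 (60 and 73 reads).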
